A study of Mus musculus with 22 samples.

Results

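Lymphocytes that carry the surface protein NK1.1 were compared with lymphocytes sorted without it, all taken from mammary tumours. By the population names in the labels, 10 of the 22 libraries of the study entered the comparison. The NK1.1+ arm held 6 libraries of 3 populations, TCR-NK1.1+, TCRb+CD8a-NK1.1+ and TCRb+CD8a+NK1.1+. The NK1.1- arm held 4 libraries of 2 populations, TCRb+CD8a+PD1+ and TCRb+CD8a+PD1-NK1.1-, with 2 libraries for each of the 5 populations. All mice were female PyMT animals of the C57BL/6 strain, 20 to 24 weeks old, whose mammary tumours are driven by the polyoma virus middle T oncogene. The labels name no treatment and no further allele. Tumours were pooled, and nothing says that the 2 libraries of a population came from separate animals, so that p-values measure only the spread between these libraries, which may be technical. The label of the PD1+ population does not state its NK1.1 status. The NK1.1- arm consisted of TCRb+CD8a+ cells alone, whereas 1 NK1.1+ population lacked a T cell receptor and another lacked CD8a. In the contrast of the 2 arms, NK1.1 and these other sort markers cannot be told apart, and a contrast of TCRb+CD8a+NK1.1+ cells alone against the same 4 libraries (the CD8a-matched contrast) is given beside it.

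NK1.1 is the product of Klrb1c and is carried in C57BL/6 mice by natural killer (NK) cells, by related innate lymphoid cells and by some T cells. NK cells are set off by germline-encoded receptors that signal through small adaptors, and they kill with perforin and granzymes. Conventional CD8+ T cells instead recognise peptide with the T cell receptor, depend on costimulators such as CD28, and carry inhibitory receptors such as PD1 after repeated stimulation. Innate-like T cells hold a T cell receptor together with NK cell receptors, and many of them stay in tissues and do not recirculate.

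The sort marker was measured first. Klrb1c was at 1376 and 1213 CPM (read counts scaled to equal library totals) in TCR-NK1.1+ cells, at 975 and 888 CPM in TCRb+CD8a-NK1.1+ cells and at 1105 and 1104 CPM in the TCRb+CD8a+NK1.1+ libraries. It was at 3.14 and 0.801 CPM in the PD1+ libraries and at 12.7 and 22.1 CPM in the PD1-NK1.1- libraries, so that both NK1.1- populations lay far below every NK1.1+ library. The difference of the 2 arms, taken as the mean of 3 population means minus the mean of 2 on the log2 scale, was 7.53 ± 0.41 (± SE, here and below). As the arms were sorted on it, Klrb1c is a check and not a finding. Pdcd1, which encodes PD1, stood at 1887 and 1517 CPM in the PD1+ libraries, at 92.3 and 105 CPM in the PD1-NK1.1- libraries and between 11.1 and 50.4 CPM in the NK1.1+ libraries. Cd3e, a T cell receptor complex gene, was still found at 208 and 418 CPM in TCR-NK1.1+ cells, against 898 to 1875 CPM in the other 8 libraries.

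Depth was even, with 11530466 to 15824546 counts per library, and 3 counts equalled 0.19 to 0.26 CPM. Genes of mammary epithelium stood apart in 3 NK1.1+ libraries. For 17 epithelial and milk markers the CPM summed to 5421 and 3826 among TCR-NK1.1+ cells and to 4355 and 330.9 among TCRb+CD8a-NK1.1+ cells, with all 17 detected in the first 3 of these. It was 74.8 and 55.7 CPM in the TCRb+CD8a+NK1.1+ libraries and 21.1 to 39.7 CPM in the 4 NK1.1- libraries. Marker sums leave out genes placed in a second list and are scaled to library totals alone. Over the 17 tested genes of the epithelial list, scaled as single genes are, the contrast was smaller. These sums were 6531 and 4061 CPM, 4662 and 1052 CPM, and 585 and 705 CPM in the same 3 NK1.1+ populations, and 203 to 383 CPM in the NK1.1- libraries. The summed CPM of 20 myeloid markers was 2239 and 2365, 1627 and 531.2, and 328.2 and 347.5 in the 3 NK1.1+ populations in the same order, and 439.5 to 905.3 in the NK1.1- libraries. In such sorted bulk samples, fewer cells of a type and less RNA per cell cannot be told apart.

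Most tested genes of the NK receptor list (23 of 30) were higher in the NK1.1+ arm. Most of the interferon response (16 of 22), T cell receptor (12 of 19) and lymph node homing lists (10 of 18) were lower. The T cell receptor count is in part set by the sort. A gene was called at an adjusted p under 0.05, which throughout is edgeR's quasi-likelihood p adjusted after Benjamini and Hochberg over all tested genes. By this rule 647 of 15727 tested genes (4.11%) were higher and 497 (3.16%) were lower in the NK1.1+ arm. The median log2 difference of all tested genes was 0.05. Of the 647 genes, 543 were higher in all 6 fitted differences between 1 NK1.1+ and 1 NK1.1- population, and 288 were so by more than 1 on the log2 scale in each. Of the 497 lower genes, 437 had the same sign in all 6 and 120 were lower by more than 1 in each. All 6 NK1.1+ libraries lay above all 4 NK1.1- libraries in 579 tested genes (3.68%) and below them in 546 (3.47%). Of the called genes, 367 higher (2.33% of those tested) and 302 lower ones (1.92%) were apart in this way. The CD8a-matched contrast, which shares these libraries, called 259 genes higher (1.65%) and 177 lower (1.13%). The counts of the whole contrast moved with single libraries: they were 400 and 272 without TCRb+CD8a+NK1.1+ replicate 1, 384 and 273 without its replicate 2, 369 and 259 without PD1+ replicate 1, 324 and 275 without its replicate 2, and 329 and 246 without PD1-NK1.1- replicate 1. Without PD1-NK1.1- replicate 2 the higher genes numbered 411, and without TCRb+CD8a-NK1.1+ replicate 2 they numbered 1086. The CD8a-matched counts were 98 and 42 without TCRb+CD8a+NK1.1+ replicate 1, 86 and 34 without its replicate 2, 168 and 104 without PD1-NK1.1- replicate 1 and 170 and 109 without PD1+ replicate 2. Its lower genes numbered 103 without PD1+ replicate 1, and 291 and 289 without TCRb+CD8a-NK1.1+ replicate 1 and 2. Without the 3 libraries with high epithelial markers, 475 genes were higher and 604 lower.

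**Figure D1:**
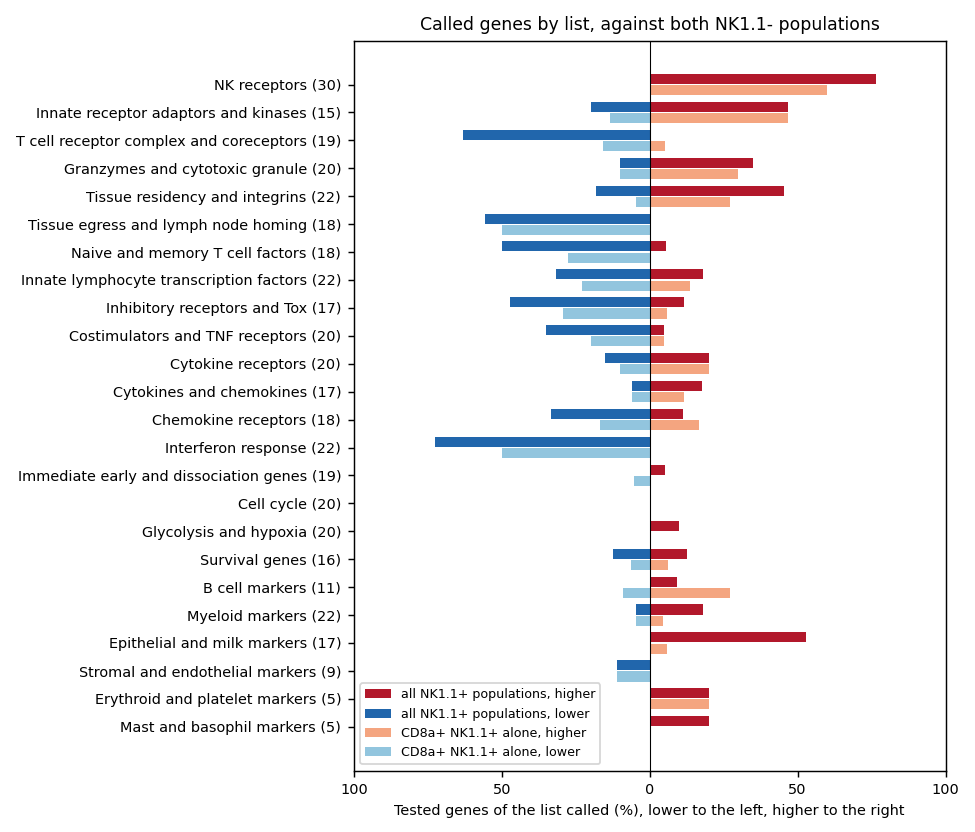
Share of the tested genes of each of 24 gene lists (number tested in parentheses) called higher (right) or lower (left), in percent, for all NK1.1+ populations and for TCRb+CD8a+NK1.1+ cells alone, each against both NK1.1- populations. Higher calls fill most of the NK receptor list and lower calls most of the interferon response and T cell receptor complex lists, and the T cell receptor bar shortens in the CD8a-matched contrast.

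NK cell receptor genes were mostly higher. Of 30 tested genes of the list, 23 were called higher and none lower, with a median difference of 3.39, and the CD8a-matched contrast called 18 higher and none lower. Where a list of NK receptor, T cell receptor, homing or interferon response genes is given here with no call in 1 direction by edgeR, no gene had an unadjusted p under 0.05 in that direction and DESeq2, a second count test, called none. Ncr1, which encodes the activating receptor NKp46, was at 1682 and 1055 CPM in TCR-NK1.1+ cells, at 309 and 289 CPM in TCRb+CD8a-NK1.1+ cells and at 17.2 and 61.5 CPM in TCRb+CD8a+NK1.1+ cells. It had 0 counts in both PD1+ libraries and in 1 PD1-NK1.1- library, and 0.548 CPM in the other. The NK1.1+ populations fell in steps for this gene, yet their lowest library lay above every NK1.1- library. With 3 counts over the PD1+ libraries in place of 0, the arms differed by at least 10.50 on the log2 scale (adjusted p = 0.000105).

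Klra1, a member of the Ly49 receptor family that binds major histocompatibility complex class I, was at 239 and 239 CPM in TCR-NK1.1+, 697 and 794 CPM in TCRb+CD8a-NK1.1+ and 312 and 326 CPM in TCRb+CD8a+NK1.1+ libraries. It was between 1.25 and 26.1 CPM in the NK1.1- libraries, a difference of 5.78 ± 0.28 (adjusted p = 1.36e-05). Klrb1a, a relative of Klrb1c, ranged from 154 to 459 CPM (median 248 CPM) in NK1.1+ and from 1.34 to 14 CPM in NK1.1- libraries, with no overlap. Reads of the near-identical Klra and Klrb genes may have been split or lost in counting, so their single values are uncertain. Fcgr3, the gene of the antibody receptor CD16, was at 137 and 81.8 CPM in TCR-NK1.1+ libraries, between 32.9 and 51.1 CPM in the other NK1.1+ libraries and at or below 3.12 CPM in NK1.1- libraries (4.70 ± 0.29, adjusted p = 2.98e-05). The 7 genes of the list that were not called were Klrc1, Klrg1, Cd96, Tigit, Crtam, Fasl and Tnfsf10. They had differences between -0.31 (Fasl) and 0.73 (Klrc1).

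Among the adaptors and kinases behind these receptors, 7 of 15 genes were called higher and 3 lower, with a median of 0.41. Fcer1g, the adaptor of NKp46 and CD16, was at 3090 and 1592 CPM, 1388 and 1365 CPM, and 2198 and 1932 CPM in the 3 NK1.1+ populations (TCR-, CD8a- and CD8a+ in this order, here and below). It was at 31 and 12.1 CPM in PD1+ and 110 and 163 CPM in PD1-NK1.1- libraries (5.11 ± 0.36, adjusted p = 6.14e-05). Tyrobp, which encodes the adaptor DAP12, was between 381 and 1878 CPM (median 665 CPM) in NK1.1+ and between 6.59 and 27 CPM in NK1.1- libraries (5.71 ± 0.30, adjusted p = 1.36e-05). The adaptor genes thus did not overlap between the arms, and the lowest NK1.1+ library had more than the highest NK1.1- library for both.

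A pair of linker genes moved in opposite directions. Lat, the membrane scaffold of T cell receptor signalling, was at 57.2 and 77.6 CPM, 120 and 153 CPM, and 172 and 204 CPM in the NK1.1+ populations, and between 427 and 517 CPM in all NK1.1- libraries (-1.96 ± 0.17, adjusted p = 0.000165). Lat2, a related linker of B, myeloid and NK cells, was at 360 and 271 CPM, 275 and 163 CPM, and 412 and 309 CPM against 12.1 to 40.4 CPM (3.32 ± 0.36, adjusted p = 0.000683). Both genes kept their direction in TCRb+CD8a+NK1.1+ cells alone, at -1.32 ± 0.24 (adjusted p = 0.0184) and 3.63 ± 0.42 (adjusted p = 0.0015). The phospholipase C gene Plcg2 was higher in the contrast of the arms (3.48 ± 0.43, adjusted p = 0.00116) and in the CD8a-matched one (3.80 ± 0.48, adjusted p = 0.00253). Plcg1, the form linked to the T cell receptor, was lower for the arms (-1.15, adjusted p = 0.033, called in 3 of the 10 fits that each left out a library). It was not called in the CD8a-matched contrast (-0.26 ± 0.37, adjusted p = 0.929), and its lowest values, 11.2 and 22.3 CPM, were those of the TCR- cells. Sh2d1a, which encodes the adaptor SAP of SLAM receptors, was lower at -2.07 (adjusted p = 0.00061).

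Granzyme genes were called higher or lower according to the member. Of 20 tested granule genes, 7 were higher and 2 lower. Gzmb was at 9828 and 6108 CPM, 8818 and 4922 CPM, and 16264 and 12522 CPM in the NK1.1+ populations, and at 1285, 750, 1615 and 2522 CPM in the NK1.1- libraries (2.67 ± 0.28, adjusted p = 0.000518). Gzmc was at 4176 and 2054 CPM, 571 and 572 CPM, and 232 and 316 CPM, against 1.03 to 14 CPM (7.42 ± 0.49, adjusted p = 4.37e-05). Gzmb was thus highest in the CD8a+ NK1.1+ cells and Gzmc in the TCR- cells, and neither gene overlapped between the arms.

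Gzmk, a granzyme gene of memory and exhausted CD8+ T cells, ran the other way. It was at 15.2 and 9.94 CPM, 7.08 and 2.91 CPM, and 27.9 and 16.3 CPM in the NK1.1+ populations, at 900 and 1011 CPM in PD1+ and at 137 and 204 CPM in PD1-NK1.1- libraries (-5.18 ± 0.30, adjusted p = 2.44e-05). Gzmm, another granzyme gene, was lower at -2.19 (adjusted p = 0.008). Prf1, the perforin gene, was at 435 and 315 CPM in TCR-NK1.1+, 90.5 and 55.5 CPM in TCRb+CD8a-NK1.1+ and 102 and 85.4 CPM in TCRb+CD8a+NK1.1+ libraries, against 114 to 233 CPM in NK1.1- libraries. The TCR- libraries lay above and the other 4 below all NK1.1- libraries, and the contrast of the arms was not called (-0.33 ± 0.21, adjusted p = 0.424). The granzyme inhibitor genes Serpinb9 (1.14, adjusted p = 0.003) and Serpinb6b (1.33, adjusted p = 0.00086), whose products protect killer cells from their own granules, were higher.

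**Figure D2:**
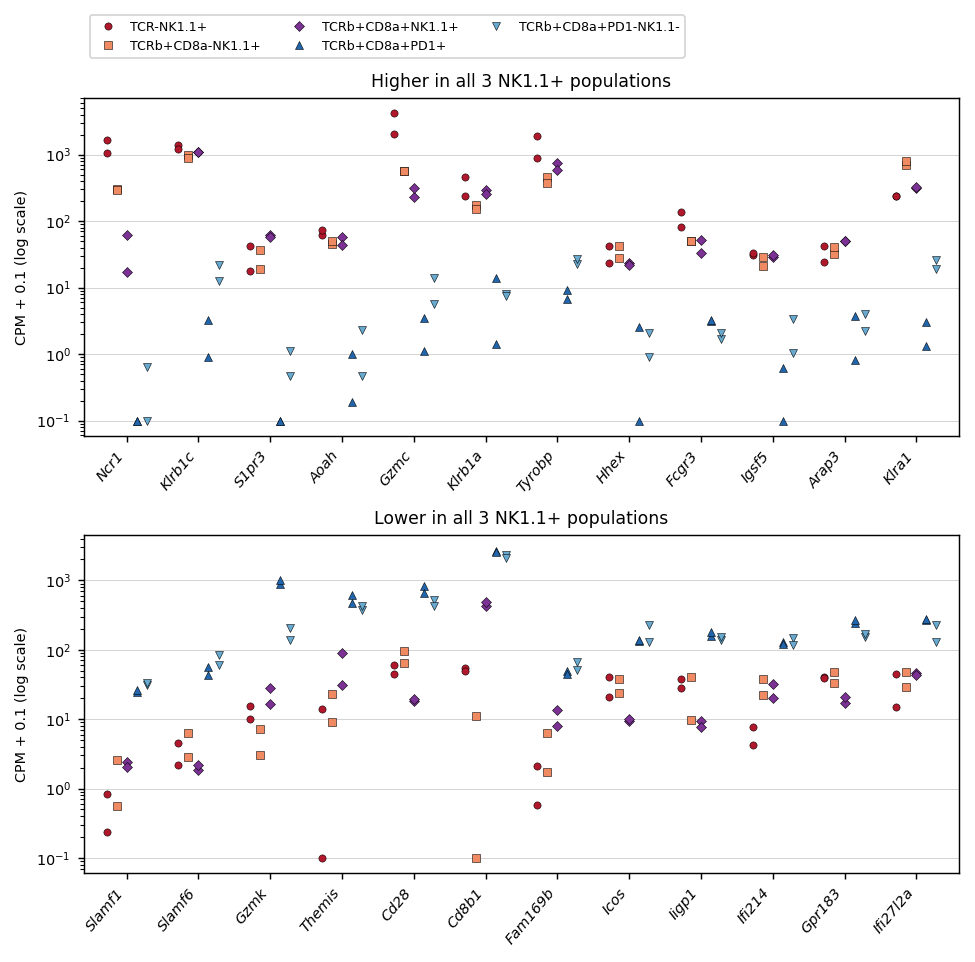
CPM (log scale, 0.1 added) in each of the 10 libraries for the 12 genes called higher and the 12 called lower with the largest of the smallest of 6 population differences, and at least 20 CPM in each population of the higher arm. Each point is 1 library, and in every gene shown the red, orange and purple points of the NK1.1+ populations are apart from the blue points of the NK1.1- populations.

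By the size of the smallest of the 6 population differences, the 12 leading higher genes with a symbol were Ncr1, Klrb1c, S1pr3, Aoah, Gzmc, Klrb1a, Tyrobp, Hhex, Fcgr3, Igsf5, Arap3 and Klra1. Because a gene had to be apart in every library to be named here, the separation in the plot of library values is a description. Aoah, an enzyme that inactivates bacterial lipopolysaccharide, was between 44 and 73.5 CPM (median 53.9 CPM) in NK1.1+ libraries and between 0.089 and 2.19 CPM in NK1.1- libraries (6.04 ± 0.58, adjusted p = 0.000301). S1pr3, whose product binds the lipid sphingosine phosphate, was at 17.9 and 41.8 CPM, 37 and 19.2 CPM, and 61.5 and 58.2 CPM, against 0 counts in PD1+ and 1.02 and 0.372 CPM in PD1-NK1.1- libraries. With 3 counts over the PD1+ libraries, S1pr3 differed by at least 7.05 on the log2 scale (adjusted p = 0.000127). Hhex, a homeobox factor gene, was at 21.8 to 42.9 CPM against 0 to 2.5 CPM (4.46 ± 0.74, adjusted p = 0.00596). These 3 genes varied less across the NK1.1+ libraries than Gzmc and Ncr1 did. Igsf5, an immunoglobulin superfamily gene, was at 21.1 to 32.6 CPM against 0 to 3.27 CPM (5.18 ± 0.59), and Arap3, a regulator of small GTPases, at 24.4 to 50.5 CPM against 0.712 to 3.94 CPM (3.91 ± 0.46).

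T cell receptor genes were lower in the contrast of the arms, with 12 of 19 called lower and none higher, a median of -1.16, and 9 of the 19 called for differences among the 3 NK1.1+ populations. In the CD8a-matched contrast 3 were lower and 1, Cd3g (0.85, adjusted p = 0.034), was higher. The NK1.1- arm was sorted as TCRb+CD8a+, while 1 NK1.1+ population was sorted as TCR- and another as CD8a-. Lower T cell receptor and Cd8a values for the arms, and their differences among the NK1.1+ populations, are thus in part set by the sort. They are not taken as findings. Trac, the constant segment of the T cell receptor alpha chain, was at 87 and 157 CPM in TCR-NK1.1+, 535 and 492 CPM in TCRb+CD8a-NK1.1+ and 917 and 764 CPM in TCRb+CD8a+NK1.1+ libraries, against 707 to 1108 CPM. Its difference was -1.16 ± 0.20 (adjusted p = 0.00661) for the arms and 0.00 ± 0.27 (adjusted p = 1) for CD8a+ NK1.1+ cells, which overlapped with the NK1.1- libraries. Cd8a was at 2646 and 2637 CPM in TCRb+CD8a+NK1.1+ libraries, above the 1480 to 2113 CPM of the NK1.1- libraries, while Cd8b1, the other chain of the coreceptor, was at 426 and 483 CPM against 2081 to 2680 CPM. In these CD8a+ cells Cd8a thus lay above and Cd8b1 below all NK1.1- libraries, although the fitted differences in the CD8a-matched contrast, 0.65 ± 0.33 for Cd8a (adjusted p = 0.515) and -2.41 ± 0.98 for Cd8b1 (adjusted p = 0.355), were not called.

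The 3 genes of the list that were lower in the CD8a-matched contrast too were Cd28, Icos and Cd5. Cd28, the main costimulator gene of T cells, was at 44.1 and 59.4 CPM, 63.6 and 95.4 CPM, and 17.9 and 19.6 CPM in the NK1.1+ populations and between 429 and 838 CPM in the NK1.1- libraries. The CD8a+ NK1.1+ cells held the least, below the cells sorted as TCR-. The difference was -3.80 ± 0.19 (adjusted p = 1.36e-05) for the arms and -4.98 ± 0.33 (adjusted p = 0.000116) for the CD8a+ cells. Icos, a costimulator related to CD28, was at 9.17 to 41 CPM (median 22.2 CPM) against 129 to 225 CPM. Cd5, a damper of T cell receptor signals, was at 3.28 and 3.76 CPM in TCR-NK1.1+ and 14.5 to 30.2 CPM in the other NK1.1+ libraries, against 58.6 to 132 CPM (-2.81 ± 0.23, adjusted p = 0.000125). Themis, a T cell receptor signalling gene, was lower in the contrast of the arms (-4.63 ± 0.79, adjusted p = 0.00696) and not called in the CD8a-matched one (-2.94 ± 1.15, adjusted p = 0.331).

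**Figure D3:**
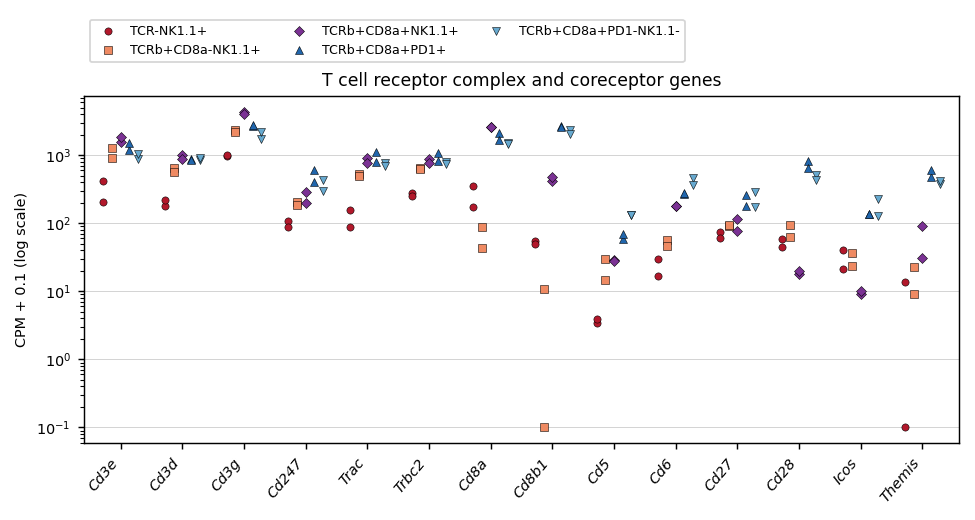
CPM (log scale, 0.1 added) of 14 T cell receptor complex and coreceptor genes in each of the 10 libraries, 1 point per library. Trac, Cd3e and Cd8a are as high in TCRb+CD8a+NK1.1+ libraries (purple) as in the NK1.1- libraries (blue), whereas Cd28, Icos, Cd5 and Cd8b1 are lower in all NK1.1+ libraries.

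Costimulators of the tumour necrosis factor receptor and SLAM families were called lower in 7 of 20 cases and higher in 1, with 12 not called, and lower in 4 of 20 in the CD8a-matched contrast. Slamf6, a SLAM receptor of memory-like T cells, was at 1.75 to 6.15 CPM (median 2.43 CPM) in NK1.1+ and 43.4 to 84.4 CPM in NK1.1- libraries (-4.30 ± 0.32, adjusted p = 8.5e-05). Slamf1 was at 0.134 to 2.5 CPM against 24.7 to 33.6 CPM (-4.69 ± 0.51, adjusted p = 0.000637), near the level of 3 counts in the lowest NK1.1+ libraries. The 1 gene called higher was Tnfrsf9, which encodes the costimulator 4-1BB, at 678 and 527 CPM, 389 and 319 CPM, and 664 and 622 CPM against 231 and 134 CPM in PD1+ and 58.6 and 96.9 CPM in PD1-NK1.1- libraries (2.11 ± 0.24, adjusted p = 0.000734).

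Inhibitory receptor genes were called lower in 8 of 17 cases, of which Pdcd1 was a sort marker and is no finding, and higher in 2, Cd200r1 (1.30, adjusted p = 0.0082) and Pdcd1lg2 (1.29, adjusted p = 0.02, called in 5 of 10 fits that each left out a library). Ctla4 was at 6.15 to 13.8 CPM in NK1.1+ libraries, at 182 and 138 CPM in PD1+ and at 30.2 and 47.1 CPM in PD1-NK1.1- libraries (-3.19 ± 0.24, adjusted p = 8.05e-05). Havcr2, which encodes the inhibitory receptor TIM-3, was at 105 and 96.3 CPM in PD1+ libraries, 7.28 and 6.91 CPM in PD1-NK1.1- libraries and at most 3.01 CPM in NK1.1+ libraries (-4.71 ± 0.75, adjusted p = 0.00508). For both genes the NK1.1+ libraries lay below even the PD1-NK1.1- libraries. Tox, a factor of exhausted T cells, was at 1079 and 952 CPM in PD1+ libraries, while the 6 NK1.1+ libraries (139 to 364 CPM) overlapped the PD1-NK1.1- ones (200 and 151 CPM).

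Genes of lymph node homing and of exit from tissue were lower in 10 of 18 cases and higher in none, and in the CD8a-matched contrast in 9 of 18. Ccr7, the lymph node homing receptor gene, was at 3.28 and 7.66 CPM, 8.49 and 9.57 CPM, and 0.25 and 0.585 CPM in the NK1.1+ populations, at 27.8 and 13.7 CPM in PD1+ and at 538 and 220 CPM in PD1-NK1.1- libraries (-5.00 ± 0.39, adjusted p = 0.000104). S1pr1, whose product guides lymphocytes out of tissues, was at 7.66 and 11.7 CPM, 43.2 and 59.2 CPM, and 7.25 and 2.84 CPM, against 46.5 and 28.9 CPM in PD1+ and 397 and 278 CPM in PD1-NK1.1- libraries (-3.05 ± 0.29, adjusted p = 0.000301). For S1pr1 the CD8a- NK1.1+ cells overlapped with PD1+ cells, so that its difference did not hold between every pair of populations. Il7r, the interleukin 7 receptor gene of long-lived T cells, was at 24.9 and 27.5 CPM, 41.7 and 91.2 CPM, and 3.84 and 1.25 CPM, against 143 and 148 CPM and 577 and 463 CPM (-4.06 ± 0.31, adjusted p = 9.81e-05). Of 18 naive and memory T cell factors, 9 were lower, among them Lef1 (-1.96, adjusted p = 0.0038), and 1, Sox4, was higher. Sox4 was at 48.9 and 68.1 CPM in TCR-NK1.1+ and 43.6 and 12.3 CPM in TCRb+CD8a-NK1.1+ libraries. It was at most 2.17 CPM in TCRb+CD8a+NK1.1+ and NK1.1- libraries, and the CD8a-matched contrast did not call it (adjusted p = 0.784). In the second set of libraries, described below, Sox4 was lower (-6.16 ± 0.68, adjusted p = 0.000982). The part of epithelial RNA in the Sox4 values was not tested.

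Tissue residency genes and integrins were higher in 10 of 22 cases and lower in 4, with 6 higher and 1 lower in the CD8a-matched contrast. Itga1, which encodes the collagen receptor CD49a, was at 94.3 and 192 CPM, 165 and 271 CPM, and 237 and 316 CPM, against 36 and 51.6 CPM and 51.6 and 101 CPM (1.83 ± 0.31, adjusted p = 0.00625), and 1 TCR-NK1.1+ library overlapped with the NK1.1- arm. Itgae, whose product CD103 binds E-cadherin, was at 498 and 724 CPM, 940 and 547 CPM, and 1416 and 1277 CPM, against 181 to 508 CPM, also with 1 overlapping TCR- library (1.43 ± 0.23, adjusted p = 0.00471). Xcl1, an attractant of cross-presenting dendritic cells, was at 822 to 2176 CPM (median 1141 CPM) against 119 to 306 CPM (2.92 ± 0.30, adjusted p = 0.000449). Cxcr6, a chemokine receptor gene of resident T cells, was in contrast lower (-0.98, adjusted p = 0.0082), with overlap. It was at 773 and 953 CPM, 1139 and 1321 CPM, and 1840 and 1764 CPM, against 3058 and 3562 CPM in PD1+ and 1368 and 2241 CPM in PD1-NK1.1- libraries. The CD8a-matched contrast did not call Cxcr6 (-0.44 ± 0.24, adjusted p = 0.567). Zfp683, the gene of the residency factor Hobit, was at 12.1 to 32.1 CPM against 4.54 to 8.84 CPM (1.56 ± 0.28, adjusted p = 0.00926), a call that was lost in 1 of 10 fits that each left out a library.

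Transcription factors of innate lymphocytes were called higher in 4 of 22 cases and lower in 7. Eomes, a T-box factor of NK cells and of effector T cells, was at 30.4 and 46.1 CPM, 13.6 and 19.6 CPM, and 8.09 and 8.53 CPM, against 124 and 134 CPM in PD1+ and 44.5 and 49.7 CPM in PD1-NK1.1- libraries (-2.16 ± 0.20, adjusted p = 0.000282). Its partner Tbx21, the T-bet gene, was at 20.4 to 74.8 CPM against 19.1 to 44.2 CPM, overlapped and was not called (0.48 ± 0.34, adjusted p = 0.483). Irf8 was at 51.7 to 254 CPM (median 154 CPM) against 12.3 to 43.1 CPM (1.87 ± 0.33, adjusted p = 0.00773), and Nfil3, which is needed for NK cell development, at 12.6 to 27.2 CPM against 4.93 to 12.4 CPM (1.33 ± 0.27, adjusted p = 0.0153). Nfil3 stayed called in 6 of the 10 fits that each left out a library. Ikzf2, which encodes Helios, was at 276 and 457 CPM in TCRb+CD8a-NK1.1+ and 328 and 340 CPM in TCRb+CD8a+NK1.1+ libraries, above the NK1.1- libraries at 41.8 to 129 CPM. The TCR-NK1.1+ libraries, at 38.4 and 93.5 CPM, overlapped with them (1.53 ± 0.28, adjusted p = 0.00967).

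Cytokine genes and their receptors split. Il2rb, the shared receptor chain for interleukin 2 and interleukin 15, was at 1014 to 2265 CPM (median 1655 CPM) against 508 to 965 CPM (1.31 ± 0.21, adjusted p = 0.00504). Il12rb2, the signalling chain of the interleukin 12 receptor, was at 64.9 to 248 CPM against 7.82 and 4.27 CPM in PD1+ and 49.1 and 105 CPM in PD1-NK1.1- libraries, with overlap only with the latter (2.79 ± 0.36, adjusted p = 0.00151). Il18r1 was lower (-1.77, adjusted p = 0.0023), but not in every NK1.1+ population. It was at 54.8 and 60.8 CPM, 53 and 30.7 CPM, and 2.5 and 4.26 CPM, against 51.7 and 32.9 CPM in PD1+ and 115 and 108 CPM in PD1-NK1.1- libraries. Only the CD8a+ NK1.1+ libraries lay below all NK1.1- libraries. The gene was called for a difference among the NK1.1+ populations (adjusted p = 0.0111). Ifng, the interferon gamma gene, was at 41.1 to 89.1 CPM in NK1.1+ libraries, at 311 and 353 CPM in PD1+ and at 96.2 and 159 CPM in PD1-NK1.1- libraries, with no overlap (-1.66 ± 0.21, adjusted p = 0.00132). Csf2, the growth factor GM-CSF gene, was at 13.5 to 27.5 CPM against 2.69 to 8.62 CPM (2.08 ± 0.31, adjusted p = 0.00329). In the Bcl2 family the pro-apoptotic genes were opposed, with Bcl2l11 higher (134 to 318 CPM against 70.1 to 86.3 CPM, 1.40 ± 0.20, adjusted p = 0.00277) and Pmaip1 lower (6.31 to 18.6 CPM against 56.5 to 139 CPM, -2.89 ± 0.24, adjusted p = 0.000121). No gene of 20 cell cycle genes was called either way in the contrast of the arms by edgeR, while 2 were higher at an unadjusted p under 0.05 and DESeq2 called 1 higher.

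Interferon response genes were lower in 16 of 22 cases and higher in none, with a median of -1.17, and in the CD8a-matched contrast 11 were lower. These genes are induced when interferons act on a cell. Iigp1, a GTPase gene of defence against intracellular pathogens, was at 37.7 and 28.1 CPM, 40.2 and 9.57 CPM, and 9.34 and 7.53 CPM, against 158 and 178 CPM in PD1+ and 136 and 151 CPM in PD1-NK1.1- libraries (-3.03 ± 0.34, adjusted p = 0.000774). Ifit3, an antiviral effector gene, was at 86.9 and 66.2 CPM, 170 and 146 CPM, and 107 and 67.1 CPM, against 478 and 432 CPM and 227 and 273 CPM (-1.73 ± 0.19, adjusted p = 0.000606). The arms did not overlap for either gene, and the CD8a- cells were the highest of the NK1.1+ populations for Ifit3. In 14 of the 16 called genes all 6 NK1.1+ libraries lay below all 4 NK1.1- libraries. The 6 genes not called were Isg15, Isg20, Mx2, Oas1a, Oasl2 and Bst2, and all 6 had a difference below 0, from -1.20 (Mx2) to -0.09 (Oas1a). Outside the list, Ifi214 (-2.94 ± 0.25, adjusted p = 0.000165) and Ifi27l2a (-2.58 ± 0.32, adjusted p = 0.00117), both named for their response to interferon, were among the 12 leading lower genes.

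The promoters of this list are shown because its members were low together. An interferon-stimulated response element, searched on both strands as GAAA, any 2 bases and GAAA again in the 250 bases before the start of each gene, was found in 11 of the 16 protein-coding genes of the list with an entry (68.8%). It was found in 349 of 10144 tested protein-coding genes with an entry (3.44%). Among the members called lower it was in 8 of 11 (72.7%). As the list was chosen for interferon response, its share could be high whatever the expression values. A link to the lower values was not tested. The other 4 motifs searched, named T-box (GGTGTGA), RUNX (TGTGGTT), ETS (GGAAGT) and TCF/LEF (CTTTGAT), were in 12.5, 18.8, 6.25 and 0% of the list and in 3.57, 4.12, 27.2 and 2.94% of tested genes. Below are the 150 bases before the start of 6 genes called lower, chosen because they hold a match there, from RefSeq on GRCm38.p6, 5′ to 3′ in the direction of the gene and with the matches in capitals. Ifit1 holds a pair of matches, and in Gbp3 a pair overlaps. A match is a description of these letters and not a site of binding. Of the other genes called lower with an entry, Rsad2 holds 1 match in these bases, and Ifit2, Irf9, Irf7, Stat2 and a second promoter of Gbp3 hold none. Of 15 protein-coding genes of the list called lower, 11 have an entry. Iigp1, Mx1 and Oas2 are among the genes called lower without one. Among the genes shown, Ifit1 differed by -1.50 (adjusted p = 0.0016), Oas3 by -2.40 (adjusted p = 0.00084), Gbp3 by -1.35 (adjusted p = 0.0029), Gbp2 by -1.19 (adjusted p = 0.0031) and Igtp by -0.92 (adjusted p = 0.0065).
Ifit3 (chr19:34583379-34583528, plus strand): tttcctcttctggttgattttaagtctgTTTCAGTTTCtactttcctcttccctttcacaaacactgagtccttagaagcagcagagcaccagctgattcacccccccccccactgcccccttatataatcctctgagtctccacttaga
Ifit1 (chr19:34640739-34640888, plus strand): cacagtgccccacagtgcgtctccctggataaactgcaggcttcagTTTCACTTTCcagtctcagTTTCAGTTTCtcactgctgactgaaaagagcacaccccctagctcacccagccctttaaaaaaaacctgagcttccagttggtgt
Oas3 (chr5:120777660-120777809, minus strand): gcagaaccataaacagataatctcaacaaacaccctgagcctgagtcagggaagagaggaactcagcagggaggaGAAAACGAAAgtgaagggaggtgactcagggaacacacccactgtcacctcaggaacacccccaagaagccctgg
Gbp3 (chr3:142559894-142560043, plus strand): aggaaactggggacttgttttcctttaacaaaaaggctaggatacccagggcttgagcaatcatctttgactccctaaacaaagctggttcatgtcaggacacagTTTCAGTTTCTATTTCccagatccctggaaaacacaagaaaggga
Gbp2 (chr3:142620513-142620662, plus strand): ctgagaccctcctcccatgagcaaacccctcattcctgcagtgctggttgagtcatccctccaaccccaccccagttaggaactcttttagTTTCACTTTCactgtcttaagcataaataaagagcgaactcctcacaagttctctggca
Igtp (chr11:58199406-58199555, plus strand): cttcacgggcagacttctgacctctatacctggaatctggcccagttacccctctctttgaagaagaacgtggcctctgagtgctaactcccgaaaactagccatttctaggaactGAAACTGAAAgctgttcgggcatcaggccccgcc

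**Figure D4:**
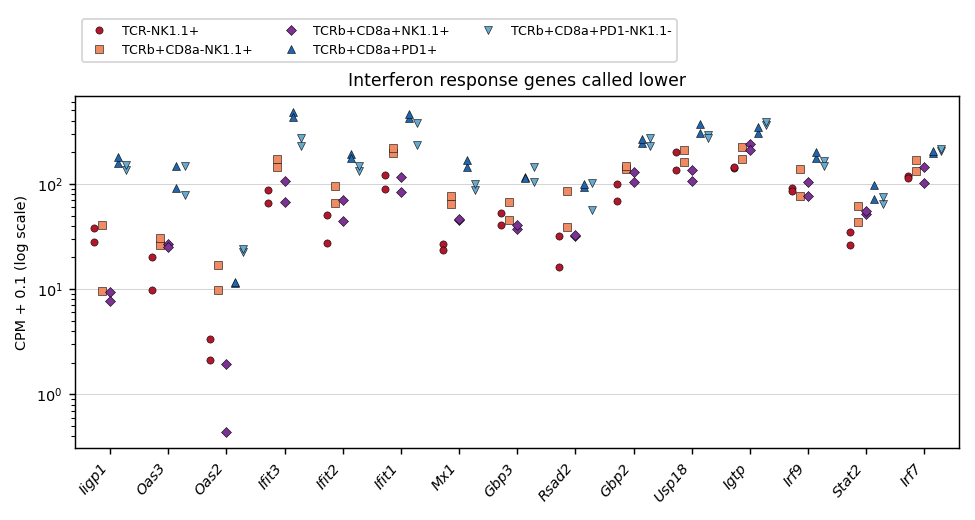
CPM (log scale, 0.1 added) in each of the 10 libraries for 15 interferon response genes called lower, 1 point per library. All 4 NK1.1- libraries (blue) lie above all 6 NK1.1+ libraries in 13 of the 15 genes, and the arms overlap for Oas2 and Rsad2.

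The 3 NK1.1+ populations also differed from each other: 92 of 15727 genes (0.585%) were called for a difference among them. The count moved with single libraries, and the cause was not tested. No gene was called without TCRb+CD8a+NK1.1+ replicate 1 (1091 genes at an unadjusted p under 0.05, smallest adjusted p 0.0538) and 2 were called without its replicate 2. Without TCR-NK1.1+ replicate 1 the count was 22, without its replicate 2 it was 46, and without TCRb+CD8a-NK1.1+ replicate 1 or 2 it was 1050 or 707. It was 145 and 144 without PD1+ replicate 1 and 2. Among the genes that differed, Anxa1, which encodes an anti-inflammatory phospholipid-binding protein, was at 1056 and 603 CPM, 632 and 379 CPM, and 3.17 and 5.27 CPM in the NK1.1+ populations, and at 18.3 to 69.1 CPM in the NK1.1- libraries. The CD8a+ NK1.1+ cells thus lay below, and the other NK1.1+ populations above, the NK1.1- arm. Ly6c2, whose product marks many recirculating T cells, was at 374 and 648 CPM in TCRb+CD8a-NK1.1+ cells and at 128 and 107 CPM and 65.3 and 62.7 CPM in the other NK1.1+ populations, against 242 and 217 CPM in PD1+ and 1243 and 1580 CPM in PD1-NK1.1- libraries. Tsc22d1, a transcriptional regulator gene, was graded within the arm at 167 and 167 CPM, 51 and 56.6 CPM, and 6.84 and 7.11 CPM, and all 6 lay above the NK1.1- libraries at 1.71 to 3.08 CPM (4.09 ± 0.21, adjusted p = 1.36e-05).

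Epithelial genes were higher in the NK1.1+ arm in 9 of 17 cases. Krt8, a keratin gene of mammary epithelium, was at 359 and 260 CPM, 264 and 49.5 CPM, and 2.25 and 2.42 CPM, against 1.1 to 2.24 CPM (4.87 ± 0.50, adjusted p = 0.000434), and was not called in the CD8a-matched contrast (0.51 ± 0.59, adjusted p = 0.891). The 3 libraries with high summed epithelial markers were thus the ones with the most Krt8. Epcam, in contrast, was at 113 and 160 CPM, 64.2 and 54.9 CPM, and 22.1 and 31.2 CPM, against 1.49 to 5.79 CPM, and was called in the CD8a-matched contrast as well (2.79 ± 0.44, adjusted p = 0.00778). Cd9, a tetraspanin gene of the residency list that epithelium expresses too, was at 682 and 475 CPM, 449 and 128 CPM, and 121 and 117 CPM, against 27.1 to 47.4 CPM (2.81 ± 0.36, adjusted p = 0.00164). The part of epithelial RNA in such values was not tested gene by gene. For the genes named above, Gzmb, Gzmc, Ncr1, Fcer1g, Tyrobp, Klra1, Gzmk, Cd28, Ifit3 and Iigp1 stayed called without the 3 libraries. This fit is not clear of epithelial RNA, since Krt8 (2.71), Krt18 (2.02) and Epcam (3.31) stayed higher in it. The TCRb+CD8a-NK1.1+ library it keeps had 330.9 CPM of epithelial markers, against 21.1 to 39.7 CPM in NK1.1- libraries. This fit also leaves out the whole TCR-NK1.1+ population, so that the loss of these cells and of part of the epithelial RNA cannot be told apart in it. The genes no longer called included Trac (-0.38, adjusted p = 0.21), Plcg1 (-0.17, adjusted p = 0.64), Cxcr6 (-0.66, adjusted p = 0.058), Sox4 (2.37, adjusted p = 0.13) and Anxa1 (0.32, adjusted p = 0.586).

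A second set of 12 libraries, made from the same kind of tumours and sharing no library with the first, allowed the contrast to be repeated. Its NK1.1+ type populations were ILC1l (type 1-like innate lymphoid), cNK (conventional NK), TCRab+ILTC1 and TCRgd+ILTC1 (innate-like T) cells, and its NK1.1- populations were TCRb+CD8a+NK1.1- and TCRgd+NK1.1- cells. The labels state NK1.1 status only for the NK1.1- populations. Klrb1c was at 1000 to 2483 CPM in the NK1.1+ type libraries. It was at 5.95 and 87.6 CPM in TCRb+CD8a+NK1.1- and 6.55 and 11.4 CPM in TCRgd+NK1.1- libraries. In this set 351 of 16828 genes (2.09%) were higher and 1490 (8.85%) lower. Of the 646 genes higher in the first set and tested in the second, 124 were called higher again (19.2%). These were 35.5% of the 349 higher genes of the second set. More of the 646, 169, were called lower, and only 317 had the same sign in both sets. Of the 494 lower genes, 123 were called lower again (24.9%, and 8.7% of 1415) and 3, Ripor2, Atp8b4 and Sp110, were called higher. The sign was the same in both sets for 406 of the 494. The higher genes of the second set numbered 225 and 175 without ILC1l replicate 1 and 2, 206 and 172 without those of cNK, 214 and 210 without those of TCRgd+ILTC1, 907 without TCRgd+NK1.1- replicate 1 and 167 without TCRb+CD8a+NK1.1- replicate 2. The lower genes numbered 900 without cNK replicate 1, 961 without TCRgd+ILTC1 replicate 2 and 969 without TCRb+CD8a+NK1.1- replicate 2.

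NK receptors were called higher in 26 of 30 cases in the second set, the interferon response list was lower in 9 of 22 and the T cell receptor list in 11 of 19. Of 22 residency and integrin genes, 2 were higher and 1 lower there, and neither Itga1 (0.60 ± 0.21, adjusted p = 0.111) nor Itgae (-0.28 ± 0.36, adjusted p = 0.741) was called. Costimulators were lower in 4 of 20 cases and higher in 3. Prf1, not called in the first set, was higher in the second (1.94 ± 0.27, adjusted p = 0.0025). It stood at 2886 and 3713 CPM in cNK libraries, 141 to 591 CPM in the other NK1.1+ type libraries and 73.7 to 175 CPM in NK1.1- libraries, with overlap. Tbx21 was higher in the second set as well (1.60 ± 0.24, adjusted p = 0.00348), with no overlap of libraries. Ncr1 was at 1780 and 1648 CPM in ILC1l, 2735 and 2550 CPM in cNK, 174 and 101 CPM in TCRab+ILTC1 and 534 and 418 CPM in TCRgd+ILTC1 libraries, against 0 counts in TCRb+CD8a+NK1.1- and 5.69 CPM and 0 counts in TCRgd+NK1.1- libraries. Gzmk was at 2.36 to 26.6 CPM against 254 to 493 CPM (-4.90 ± 0.30, adjusted p = 0.000154). Gzmc was at 3448 and 3534 CPM in ILC1l cells and 256 to 1228 CPM in the ILTC1 libraries, but at 9.49 and 9.24 CPM in cNK libraries, within the 7.11 to 22 CPM of the NK1.1- libraries. Fcgr3 was not called in the second set (0.20 ± 0.42, adjusted p = 0.873), where the TCRgd+NK1.1- libraries held 68 and 288 CPM of it. Among the leading higher genes of the first set, only Fcgr3 and Igsf5 (0.82 ± 0.71, adjusted p = 0.575) were not called here. S1pr3 was called higher (2.60 ± 0.58, adjusted p = 0.0187). It was nonetheless at 0.778 and 0.977 CPM in cNK and at 69.3 and 32.3 CPM in TCRgd+NK1.1- libraries. Ifng was not called in the second set either (-0.06 ± 0.21, adjusted p = 0.947). Eomes (-0.69 ± 0.97, adjusted p = 0.772) and Slamf6 (-1.99 ± 0.95, adjusted p = 0.242) were also not called there. Eomes was at 146 and 188 CPM in cNK, 0 to 29.8 CPM in the other NK1.1+ type and 19.5 to 69.3 CPM in NK1.1- libraries. Cd28 was lower (-1.63 ± 0.36, adjusted p = 0.0172), with overlap of libraries.

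**Figure D5:**
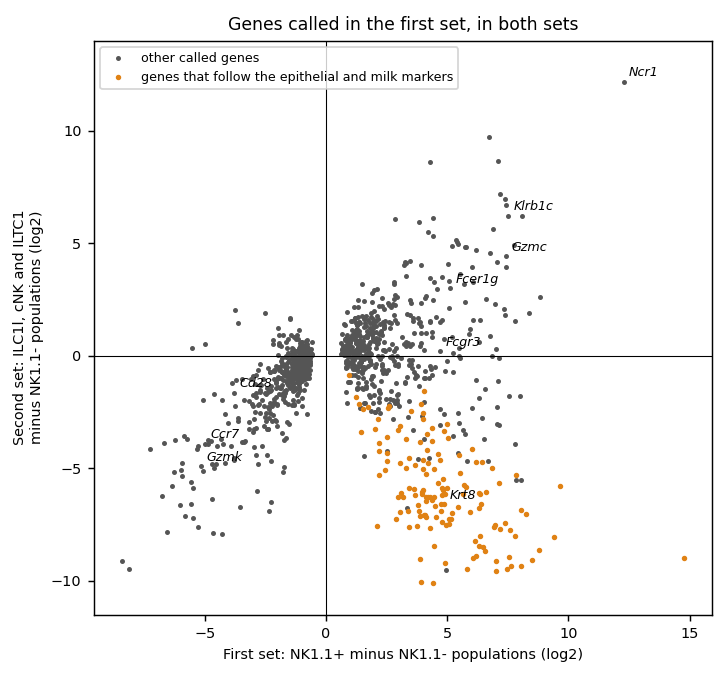
Log2 difference in the first set (horizontal) and in the second set (vertical), which share no libraries, for the genes called in the first set and tested in both. Orange points follow the mean log2 CPM of the epithelial markers. They lie mostly at the lower right, higher in the first set and lower in the second. Ncr1 and Klrb1c lie at the upper right and Gzmk, Ccr7 and Cd28 at the lower left.

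The 2 sets went apart for 169 genes that were higher in the first and lower in the second. Epithelial markers were high in the other arm of the second set, at 4148 and 2046 CPM in TCRgd+NK1.1- and 1628 and 3090 CPM in TCRb+CD8a+NK1.1- libraries, against 25.0 to 112.1 CPM in the other 8. Of these 169 genes, 131 were among the 798 tested genes that followed the epithelial markers, with a correlation above 0.8 over the 22 libraries, which share library depth and sort. As the 169 genes were chosen for the pattern that these markers have across the sets, this count is a description. Krt8 was one of them, at 162, 352, 370 and 292 CPM in the NK1.1- libraries of the second set and at most 8.35 CPM in its other libraries (-6.59 ± 0.60, adjusted p = 0.000435). Without the following genes, 576 genes of the first set were higher and 518 lower. Myeloid markers summed to 22530 and 49283 CPM in the TCRgd+NK1.1- libraries, and their part in the second-set values was not tested.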

How the data were processed

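Lymphocytes were sorted by flow cytometry from pooled mammary tumours after collagenase and DNase digestion and a Percoll gradient, and cDNA was amplified with a SMARTer kit, per the labels' protocols. The submitters' processing notes name BWA 0.7.5a, Picard and HTSeq as tools, and the builds NCBIM37 and mm9. Not given in the sources used here are each build's role, the counting settings and any use of strand. The authors deposited 1 table of whole-number counts per gene for 22 libraries, and every per-sample column was used or named by its title. Amplified reads carried no molecular identifiers, so floors of 3 counts cover counting error only.

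Of 37620 entries, 32897 (99.02% of counts) received a current symbol from GRCm38 gene names, with no coordinates taken. Of 449 genes in 24 lists, 6 were absent from the table. Counts of the 10 first-set libraries and of the 12 second-set libraries were fitted separately in edgeR 4.0.16 (R 4.3.3, limma 3.58.1) with TMM scaling, filterByExpr, 1 mean per population and quasi-likelihood F tests, adjusted over all tested genes. CPM are TMM-scaled. DESeq2 1.42.0 was an alternative. Tables and plots were made in Python 3.11.15 with pandas 2.3.3 and matplotlib 3.10.9. The 2 libraries of each population differed by more than sampling noise and were kept as 2.

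Tested on simulated data for the first-set contrast (15106 genes), the fit found 18% of genes changed by log2 1, 76% of log2 2, and 100% of log2 4 and of log2 6, while 12 of its 159 calls (7.55%) were false. At these sizes a small difference that missed the threshold is not shown to be absent. The simulation changed 50 genes at each size, drawn above a CPM floor, and gave all populations of an arm the same mean. It held no differences among the NK1.1+ populations and no uneven epithelial RNA, so its rates may not hold for the real contrast.

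The populations compared, the lists and the genes named were chosen with earlier results of these data known. Named were the sort markers, 20 key genes, the 12 higher and 12 lower called genes with no overlap of libraries, at least 20 CPM in every population of the higher arm and the largest smallest value of the 6 population differences, up to 3 called members each way of each list by adjusted p, and the 6 called genes with the lowest p among the NK1.1+ populations. From the leading genes and the last 6, entries without a symbol, receptor segments, olfactory receptors and predicted genes were dropped. Other list members are given as counted or as the full set of those called or not called, and Plcg1, Sox4, Cd8b1, Mx2, Oas1a and similar members were named after their values were seen. Alternatives were other scalings and filters, a replicate block, each library left out, populations left out, libraries summed per population, all 22 libraries in 1 fit and DESeq2. Fits that omit 3 libraries with over 1000 CPM of epithelial markers, or the genes following those markers, were chosen after seeing the data. Promoter windows came from RefSeq on GRCm38.p6. The values of 1 gene are not reported here.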

Additional observations from a re-analysis of the deposited data

Results flagged for a closer look

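Among the 3 NK1.1+ populations, 92 genes were called for a difference, which marks them as unlike each other in edgeR's test of that difference. The 6 called genes of the arm contrast with the lowest p among these populations were Tsc22d1 (adjusted p = 0.00213), Cd8a (adjusted p = 0.00348), Anxa1 (adjusted p = 0.00348), Nupr1 (adjusted p = 0.00427), Pecam1 (adjusted p = 0.0102) and Ly6c2 (adjusted p = 0.0102). Cd8a is a sort marker and not a finding. Nupr1, a stress-induced nuclear protein gene, was at 272 and 98.7 CPM in TCR-NK1.1+, 163 and 93.3 CPM in TCRb+CD8a-NK1.1+ and 0.334 and 0.167 CPM in TCRb+CD8a+NK1.1+ libraries, against 0.626 to 1.92 CPM in NK1.1- libraries. Pecam1, which encodes the adhesion molecule CD31, was at 78.6 and 103 CPM, 7.22 and 12.4 CPM, and 2.67 and 1.67 CPM in the same order, against 21.7 and 30.4 CPM in PD1+ and 100 and 41.4 CPM in PD1-NK1.1- libraries. In the second set Nupr1 was at 59.8 to 105 CPM in the NK1.1- libraries, where epithelial markers were high. It was at most 5.86 CPM in the other libraries of that set (-7.13 ± 0.77, adjusted p = 0.0013 by edgeR). The part of epithelial RNA in the Nupr1 values was not tested.

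The 169 genes higher in the NK1.1+ arm of the first set and lower in that of the second were all called for the difference between the sets in 1 fit of 22 libraries, by 1.87 or more and with a median of 10.07 on the log2 scale. As they were chosen for calls in opposite directions in the same libraries, this restates the choice and is a description. That fit called 1128 of 17860 genes. Summed epithelial markers moved the same way, as given above.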

How the results depend on the processing

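Of 105 genes picked by the naming rule, 102 were called, 83 of them in all 10 fits that each left out a library and 59 in all 14 other alternatives apart from the sums. RLE or upper-quartile scaling, a mean CPM of at least 1 and all 22 libraries in 1 fit left the first-set counts within 1.5 times of 647 higher and 497 lower. Without a filter they were 1236 and 863, for the CD8a-matched contrast 547 and 436, among the NK1.1+ populations 1392, and 2621 lower in the second set. DESeq2 gave 1483 and 913, CD8a-matched 496 and 479, among populations 822 and in the second set 534 higher. Without the TCR-NK1.1+ population 342 were higher and 322 lower, against PD1+ cells alone 295 were higher, and against PD1-NK1.1- cells alone 231 and 264. The second set without its TCRgd populations gave 160 and 806, and 582 lower without genes that follow the epithelial markers. With libraries summed per population, leaving 3 against 2 samples, edgeR called 0 and 0 (1475 higher and 921 lower at an unadjusted p under 0.05, smallest adjusted p 0.119) and DESeq2 called 1557.

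Leaving out each library in turn gave 324 to 1086 higher and 246 to 677 lower genes, among populations 0 to 1050, CD8a-matched 86 to 366 and 34 to 291, and in the second set 167 to 907 and 900 to 2061; a lone library was assumed to vary like the other populations. The replicate block gave 896 higher and 863 lower genes and 192 among populations. The labels state no pairing. The 10 correlations of replicate deviations were all above 0, from 0.0545 to 0.227, but 2 were under 0.1, so the numbers were not taken to pair the samples. Cd3e turned to 0.26 without the TCR-NK1.1+ population and 0.36 without the 3 epithelial libraries. Prf1 turned to 0.12 without the TCRb+CD8a-NK1.1+ population and 0.0389 with libraries summed. Neither gene was called in the comparison of the arms. Where the construction of a fit does not show it, the cause was not tested. Of 2620 values of named genes under alternatives, 2311 kept direction and call and 302 were no longer called, 102 of these with libraries summed.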

Other observations

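Car2, a carbonic anhydrase gene placed in the erythroid list, was at 2790 and 1715 CPM in TCR-NK1.1+, 1133 and 943 CPM in TCRb+CD8a-NK1.1+ and 1005 and 891 CPM in TCRb+CD8a+NK1.1+ libraries, against 101 to 415 CPM in NK1.1- libraries (2.55 ± 0.22, adjusted p = 0.000147 by edgeR). It was higher in the second set as well (2.34 ± 0.15, adjusted p = 0.000154), and it was the 1 gene of 5 tested in that list to be called in the first. Ighm, the immunoglobulin mu gene and the 1 of 11 B cell markers called, was higher at 1.38 (adjusted p = 0.0067) in the first and 1.51 (adjusted p = 0.0035) in the second set.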
